A study of Mus musculus with 8 samples.

Results

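Max, Kmt5a and Abt1 encode 3 nuclear proteins and are 3 of the 7951 genes for which reads were counted at a proximal and a distal polyadenylation site of the 3′-most exon in mouse brain. They were picked by symbol, with results of these counts already known: in each, the share of reads at the distal site did not overlap between the genotypes, and DESeq2 placed each among its 21 called pairs. The distal shares below are therefore a description and carry no test. The comparison asks where transcripts end in brains that carry a changed CSTF2. Max is also 1 of 6147 genes in a second table, which sets ends in an upstream exon against ends in the 3′-most exon. Kmt5a and Abt1 are not in that table. The libraries came from whole brain of 5 mice with the Cstf2D50A genotype and of 3 wild-type littermates, all killed at 50 days of age, untreated, and kept as a congenic strain on the C57BL/6NCrl background. The labels name neither sex nor batch, nor how the allele was made. CSTF2 is the subunit of the cleavage stimulation factor that binds RNA downstream of the cleavage site, and D50A lies in its RNA recognition motif. The libraries were primed on the poly(A) tail, so reads are counted where transcripts end.

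A gene with several polyadenylation sites in its last exon makes messages with the same coding sequence and 3′ untranslated regions of different length, and the longer form can carry more sites for microRNAs and RNA-binding proteins. MAX is the obligate partner of the MYC proteins: the pair binds E-box DNA and activates transcription, while MAX paired with MXD, MNT or MGA represses it. KMT5A (also called SET8 or PR-Set7) places the single methyl group on lysine 20 of histone H4, a mark tied to chromatin compaction and the cell cycle. ABT1 was described as a nuclear activator of basal transcription that binds the TATA-binding protein, and its yeast counterpart Esf2 acts in the small-subunit processome that makes the small ribosomal subunit.

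The tables held 10177902 to 13449054 reads per mutant library and 9616953 to 17530761 per wild-type library for sites within the 3′-most exon, and 7768925 to 10279635 against 7075383 to 13145966 for upstream and 3′-most exons. edgeR's quasi-likelihood test called 0 of 7876 tested pairs for site usage within the exon (0.0%) at an adjusted p under 0.05, with 1018 at an unadjusted p under 0.05 (12.9%). DESeq2 called 21 (0.267%), of which 15 lay toward the distal site (0.19%, Max among them) and 6 toward the proximal site (0.0762%, Kmt5a and Abt1 among them), and limma called 0. The libraries differ in markers of several brain regions and cell types. Of 12 cerebellar granule cell markers 8 were listed, none at 0 in every library, and their summed level was 330.3 to 364 CPM (reads scaled to 1000000 reads of the table) in mutants 1 to 4 and 1586 CPM in mutant 5, against 1595 to 1934 CPM in wild types. Each of the 8 was lower in mutants 1 to 4 than in every wild type, while 2 of the 8 were lower in all 5 mutants. The summed level of 9 cortex and hippocampus markers was 7891 to 9212 CPM in mutants, against 4178 to 7794 CPM in wild types, and that of 3 astrocyte markers 2945 to 3549 CPM in mutants, against 3664 to 3749 CPM in wild types. Both sums separated all 5 mutants, mutant 5 included, from all wild types in the table of sites within the exon. Singly, 0 of the 9 and 0 of the 3 markers did so there. edgeR's log2 change in level was above 0 for 9 of the 9 and for 1 of the 3. Both sums overlapped in the table with upstream exons, where 4 markers of each list are counted. The reverse held for Purkinje cell markers, 3 in each table. With upstream exons their sum was 544 to 676 CPM in mutants, mutant 5 included, against 709.7 to 883 CPM in wild types. Within the exon it overlapped only through mutant 5, at 351 CPM. There mutants 1 to 4 had 232 to 303 CPM, against 341 to 486 CPM in wild types. The part of all these markers in the results below was not tested. Summed markers of neurons, oligodendrocytes, astrocytes and microglia were above 0 in every library. In whole tissue, fewer cells of a type and less RNA per cell cannot be told apart.

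The sites of Max lie 409 bases apart, at positions 78038668 (proximal) and 78038259 (distal) on mm9 as deposited, where positions that decrease from the proximal to the distal site mark a gene on the minus strand. Those of Kmt5a lie 774 bases apart, at 124911543 and 124912317. Those of Abt1 lie 2999 bases apart, at 23513412 and 23510413, a wider gap than in most genes: 86.7% of the 7951 pairs are at most that far apart, against 54.3% for Kmt5a and 41.5% for Max, with a median of 629 bases over all pairs. The deposited tables give no chromosome, and the part of the transcript in which each site lies was not looked up on mm9. In the RefSeq gene table of another build (GRCm38.p6), 0 other genes overlap any of the 3, and Kmt5a has Rilpl2 as its next gene on the higher-coordinate side. None of the 3 has counts identical to those of another pair.

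**Figure D1:**
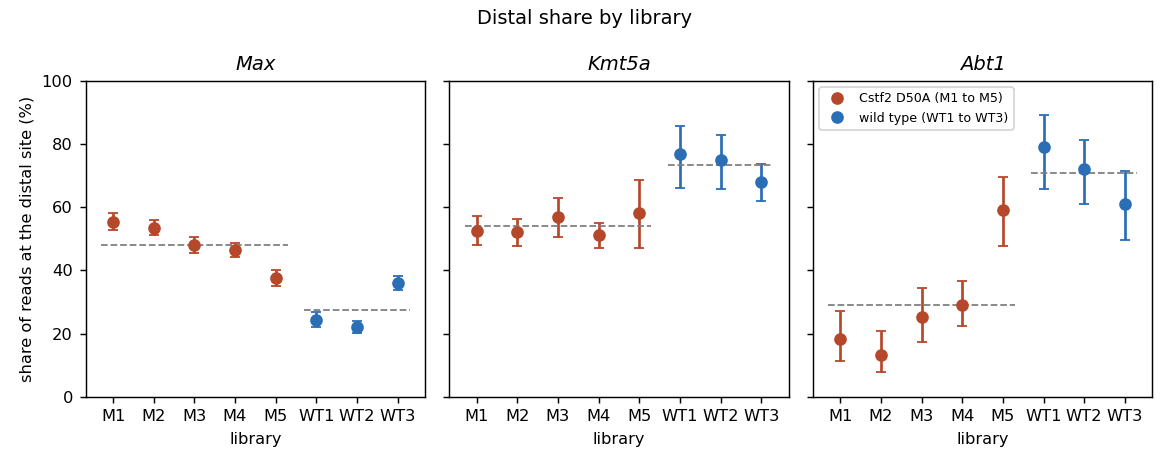
Share of reads at the distal site (%, vertical axis) of Max, Kmt5a and Abt1 in each library (horizontal axis; M1 to M5 are Cstf2 D50A mice, WT1 to WT3 wild types). Points are libraries, bars exact 95% binomial intervals and dashed lines genotype means; Max is higher in mutants, Kmt5a and Abt1 are lower, and M5 and WT3 are the closest mutant and wild type in each panel.

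Max ended more often at its distal site in the mutants. The distal site held 55.5%, 53.6%, 48.0%, 46.5% and 37.5% of Max reads in mutants 1 to 5, against 24.4%, 22.2% and 35.9% in wild types 1 to 3. The genotypes did not overlap, as toward the distal site in 2.53% of all 7876 pairs, but mutant 5 and wild type 3 came within their counting error of each other: exact (Clopper-Pearson) 95% intervals were 35.1% to 40.0% and 33.9% to 38.1%. These intervals cover counting error only. The means were 48.2 ± 7.05% in mutants and 27.5 ± 7.41% in wild types (SD, n = 5 and 3), a difference of 20.7 percentage points, and edgeR's log2 change in distal over proximal reads was 1.32 (SE 0.297). Of all pairs, 202 (2.56%) differed by as many points or more. Max rests on the most reads of the 3 genes, with a mean of 1694 per library.

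The reads of each Max site were also scaled to the table total. For each of the 3 genes, the site levels make up the distal share by which it was chosen. They are therefore a description too, here and below, and carry no test. The proximal site had 59.0, 60.2, 64.1, 86.3 and 84.8 CPM in mutants 1 to 5, against 105, 87.4 and 111 CPM in wild types 1 to 3. All 5 mutants lay below all 3 wild types, a pattern held by 3.07% of proximal sites. The distal site had 73.7, 69.4, 59.3, 75 and 51.0 CPM in mutants, against 33.7, 24.9 and 62.6 CPM in wild types. Here the genotypes overlapped, because wild type 3 lay above mutants 3 and 5. The ratio of the means (mutant over wild type) was 0.701 at the proximal and 1.63 at the distal site.

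The summed level of Max was not a value used to choose the gene, although it comes from the same reads. It was 133, 129.6, 123, 161 and 136 CPM in mutants 1 to 5, against 138, 112 and 174 CPM in wild types 1 to 3. The mutant values lay within the wild-type range. The log2 change was -0.11 (SE 0.145, edgeR adjusted p = 0.664), where edgeR called 0 of 7876 genes (0.0%) and DESeq2 26 (0.33%), with 1129 at an unadjusted edgeR p under 0.05 (14.3%). Without wild type 3 the log2 change was 0.01.

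Nearly all Max transcripts ended in the 3′-most exon. The upstream exon had 6, 5, 12, 3 and 3 reads in mutants 1 to 5, against 11, 14 and 8 reads in wild types 1 to 3, which is 0.136% to 0.75% of Max reads in mutants and 0.378% to 0.789% in wild types. These counts are small and the genotypes overlapped. The log2 change in 3′-most exon over upstream reads was 0.79 (SE 0.492, edgeR adjusted p = 0.47), where edgeR called 0 of 6001 pairs (0.0%), with 841 at an unadjusted p under 0.05 (14.0%), and DESeq2 called 5 (0.0833%). The level of Max summed over upstream and 3′-most exons had a log2 change of -0.14 (SE 0.136, edgeR adjusted p = 0.565). Of the reads of the 3′-most exon, 1.5% to 3.58% in mutants and 2.04% to 3.83% in wild types lay at neither the proximal nor the distal site, so these sites account for almost the whole exon in both genotypes.

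Kmt5a ended less often at its distal site in the mutants. The distal site held 52.6%, 52.1%, 56.9%, 51.1% and 58.1% of Kmt5a reads in mutants 1 to 5, against 76.9%, 75% and 68.1% in wild types 1 to 3. The mutants lay close together, between 51.1% and 58.1%, and below all wild types, as toward the proximal site in 1.63% of pairs. The means were 54.2 ± 3.13% in mutants and 73.3 ± 4.64% in wild types (SD, n = 5 and 3), and edgeR's log2 change in usage was -1.20 (SE 0.247). Reads were few in mutant 5 (86) and in wild types 1 and 2 (78 and 108). The exact 95% interval of mutant 5, 47.0% to 68.7%, overlaps those of all wild types. These were 66.0% to 85.7%, 65.7% to 82.8% and 62.0% to 73.7% in wild types 1 to 3. The interval of mutant 3, 50.7% to 62.9%, overlaps that of wild type 3. A share difference of 19.2 points or more in either direction was measured in 266 pairs (3.38%).

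**Figure D2:**
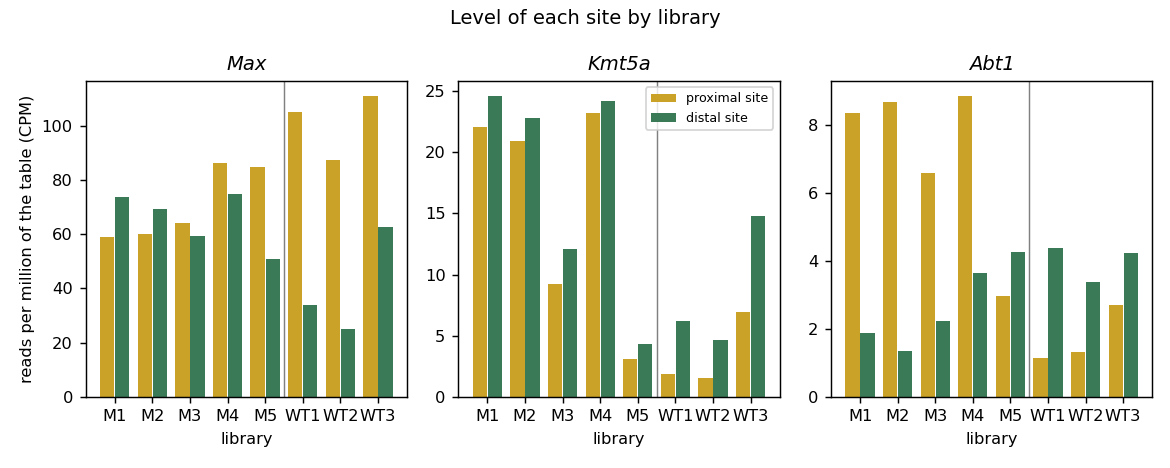
Reads scaled to 1000000 reads of the table (CPM, vertical axis, a separate scale for each gene) at the proximal and the distal site in each library (M1 to M5 are Cstf2 D50A mice, left of the line; WT1 to WT3 are wild types). Max has less at the proximal site in every mutant than in any wild type; Kmt5a is lowest at both sites in M5, WT1 and WT2; Abt1 has most at the proximal site in M1 to M4.

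The total level of Kmt5a varied widely among the mutants. It was 46.7, 43.7, 21.3, 47.4 and 7.48 CPM in mutants 1 to 5, against 8.11, 6.16 and 21.7 CPM in wild types 1 to 3. Mutant 5 lay among the wild types and mutant 3 beside wild type 3, so the genotypes overlapped. The log2 change was 1.42 (SE 0.58, edgeR adjusted p = 0.343), and it was 2.10 without wild type 3 (adjusted p = 0.0761), 1.67 without mutant 5 and 1.10 without wild type 2. The proximal site had 22.1, 20.9, 9.20, 23.2 and 3.13 CPM in mutants and 1.87, 1.54 and 6.91 CPM in wild types. The distal site had 24.6, 22.8, 12.1, 24.2 and 4.35 CPM in mutants and 6.24, 4.62 and 14.8 CPM in wild types. Both sites had a higher mean in mutants, the proximal one by a ratio of 4.57 and the distal one by 2.06, and both overlapped between the genotypes. Mutant 5, with the lowest total of the mutants, and mutant 4, with the highest, had the highest and the lowest distal share of the mutants.

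Some summed markers, general neuronal ones among them, varied across the libraries along with the Kmt5a level, while others did not. All 7 of 7 neuronal markers were listed, none at 0 in every library, and their summed level was 4670.2, 4175, 3467, 4689 and 3128 CPM in mutants 1 to 5, against 2185, 2957 and 3939 CPM in wild types 1 to 3. Mutants 4, 1 and 2 had the highest values of both measures, and wild types 1 and 2 with mutant 5 the lowest. The same libraries were highest and lowest in the summed level of 3 of 6 endothelial markers, at 197, 175, 131, 208 and 115 CPM in mutants 1 to 5, against 85, 121 and 161 CPM in wild types 1 to 3. They were so too in 4 of 8 astrocyte markers in the table with upstream exons, at 2593, 2279, 1573, 2557 and 1148 CPM in mutants, against 1057, 1139 and 2136 CPM in wild types. The 3 astrocyte markers listed within the exon did not follow the Kmt5a level, at 2945 to 3549 CPM in mutants and 3664 to 3749 CPM in wild types. Neither did 7 oligodendrocyte markers there, highest in wild type 1 at 4833 CPM, or 4 microglial markers, at 278 CPM in wild type 1. The part of these markers in the Kmt5a level was not tested.

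Abt1 had the largest difference in mean distal share of the 3 genes, although its nearest mutant and wild type almost met, and it rests on the fewest reads, with a mean of 100.4 per library. The distal site held 18.3%, 13.3%, 25.2%, 29.2% and 59.0% of Abt1 reads in mutants 1 to 5, against 79.2%, 72.0% and 61% in wild types 1 to 3. Mutants 1 to 4 were far from the wild types, while mutant 5 lay beside wild type 3. Exact 95% intervals were 47.7% to 69.7% in mutant 5 (83 reads) and 49.6% to 71.6% in wild type 3 (82 reads). The interval of mutant 5 also overlaps those of wild type 1 (65.9% to 89.2%, 53 reads) and wild type 2 (60.9% to 81.3%, 82 reads). The means were 29.0 ± 17.9% in mutants and 70.7 ± 9.20% in wild types (SD, n = 5 and 3), and edgeR's log2 change in usage was -2.67 (SE 0.652). A difference of 41.7 points or more was measured in 9 of 7876 pairs (0.114%). Without mutant 5 the difference was -49.2 points, against -20.2 points for Kmt5a and 23.4 points for Max without the same library.

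The level of Abt1 differed more at its proximal than at its distal site, again as a description of the reads by which it was chosen. The proximal site had 8.35, 8.68, 6.59, 8.85 and 2.96 CPM in mutants 1 to 5, against 1.14, 1.31 and 2.70 CPM in wild types 1 to 3. All mutants lay above all wild types, as in 2.15% of proximal sites, although mutant 5 and wild type 3 had only 34 and 32 reads there. The distal site had 1.87, 1.34, 2.22, 3.64 and 4.26 CPM in mutants and 4.37, 3.37 and 4.22 CPM in wild types, which overlapped. The ratio of means was 4.12 at the proximal and 0.669 at the distal site.

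The total level of Abt1 was 10.2, 10, 8.81, 12.5 and 7.22 CPM in mutants 1 to 5, against 5.51, 4.68 and 6.91 CPM in wild types 1 to 3. The genotypes did not overlap, as for 2.59% of all genes in this direction, and mutant 5 and wild type 3 were again nearest. The log2 change was 0.71 (SE 0.195, edgeR adjusted p = 0.343, unadjusted p = 0.00448; DESeq2 adjusted p = 0.139), so the level did not pass either test. Its adjusted p lay between 0.0721 and 0.743 under the alternatives.

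**Figure D3:**
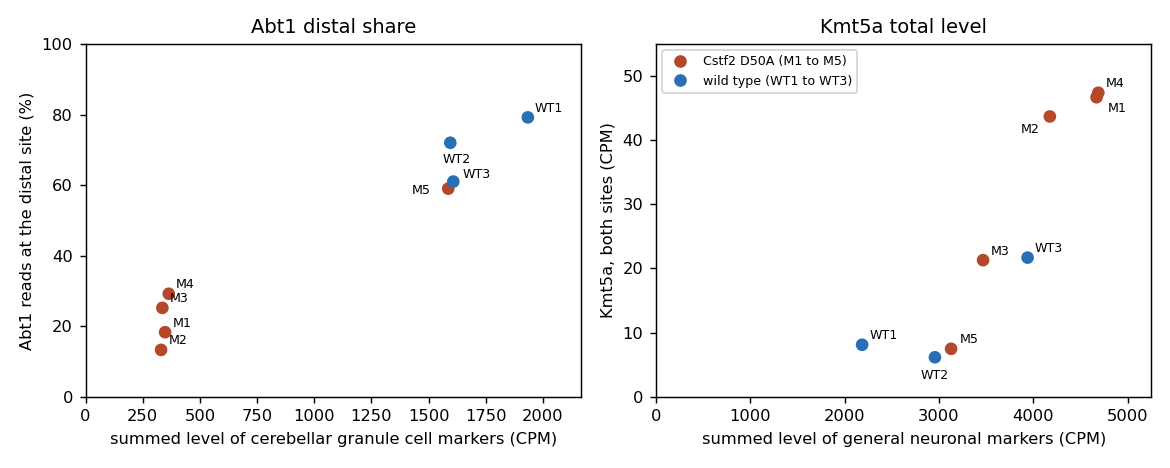
Left, Abt1 reads at the distal site (%) against the summed level (CPM) of 8 cerebellar granule cell markers; right, total Kmt5a level (CPM) against the summed level (CPM) of 7 general neuronal markers. Each point is a library (M1 to M5 Cstf2 D50A, WT1 to WT3 wild type); M5 lies with the wild types on the left, and M1, M2 and M4 are the highest on both axes on the right.

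The distal share of Abt1 and the granule cell markers split the libraries alike. Mutants 1 to 4, at 330.3 to 364 CPM of these markers, had distal shares of 13.3% to 29.2%. Mutant 5, at 1586 CPM, had 59.0%, and the wild types, at 1595 to 1934 CPM, had 61% to 79.2%. This split was not particular to granule cell markers. Within the exon, 3 Purkinje cell markers summed to 232 to 303 CPM in mutants 1 to 4, 351 CPM in mutant 5 and 341 to 486 CPM in wild types. Singly, 1 of the 3 was lower in mutants 1 to 4 than in every wild type. With upstream exons, mutant 5 lay below the wild types in the Purkinje sum, at 676 against 709.7 to 883 CPM. Striatum markers split in the opposite direction. Within the exon, 6 striatum markers summed to 592 to 675 CPM in mutants 1 to 4, 411 CPM in mutant 5 and 366 to 508 CPM in wild types. In the table with upstream exons, 2 striatum markers overlapped, at 115 to 143 CPM in mutants 1 to 4 and 119 to 134 CPM in wild types. For Max, mutant 5 (37.5%) lay closer to wild type 3 (35.9%) than to mutant 4 (46.5%), and for Kmt5a mutant 5 (58.1%) was the mutant nearest to the wild types but only slightly above mutant 3 (56.9%). Because mutants 1 to 4 had lower granule cell markers than all wild types, genotype and the level of these markers cannot be told apart in them, and the part of the markers in the shares was not tested.

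**Figure D4:**
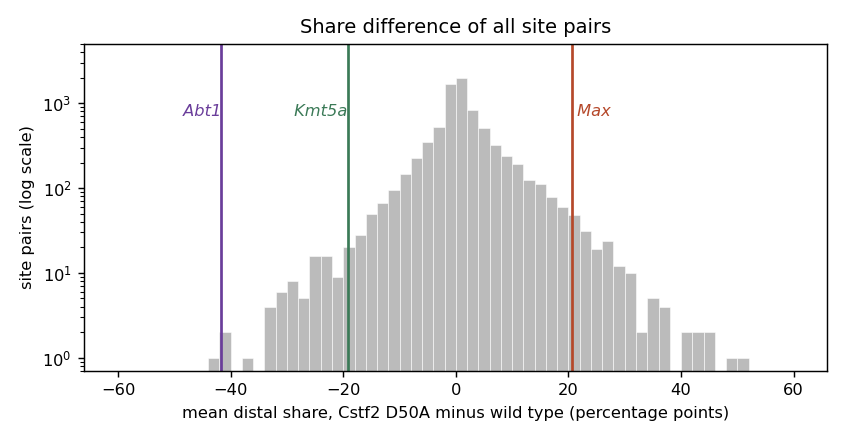
Number of site pairs (log scale) by the difference in mean distal share, Cstf2 D50A minus wild type (percentage points, bins of 2), over all 7876 tested pairs. Vertical lines mark Abt1 at -41.7, Kmt5a at -19.2 and Max at 20.7 points, in the tails of a distribution centred near 0.

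The 3 genes varied together from library to library. Over the 8 libraries, Pearson's r of the log2 ratio of distal to proximal reads was -0.96 between Max and Abt1, -0.94 between Max and Kmt5a and 0.90 between Kmt5a and Abt1. After subtracting the genotype means it was -0.86, -0.80 and 0.67. All 3 were chosen for a separation of the same libraries, and each pair of values shares its libraries and their depth. Over all candidate pairs, r with Abt1 had a median of -0.27 and ran from -0.89 at the 5th to 0.84 at the 95th percentile, and r with Kmt5a had a median of -0.22 and ran from -0.83 to 0.78. Among 7376 candidate pairs with a mean of 50 or more reads, 380 (5.15%) had an r of 0.9 or more with Max, 145 (1.97%) with Abt1 and 42 (0.569%) with Kmt5a. These counts cover positive r only, and no range over all pairs is given for the values after subtracting the genotype means.

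The pairs most like Max by this measure were Dusp7, a MAP kinase phosphatase (r = 0.99, and 0.96 within genotypes), Mfsd14a, Faah, the hydrolase of anandamide, Pcid2 and Ccdc32 (r = 0.98 each). The distal share of Faah was 56.6 ± 3.26% in mutants and 47.7 ± 3.07% in wild types, and that of Pcid2 58.5 ± 7.27% and 35.9 ± 13.7% (SD, n = 5 and 3). Those most like Kmt5a were Slc11a2, a transporter of divalent metals (r = 0.98), Rasgrf2 (0.97), Slc7a1, a transporter of cationic amino acids (0.96), Dnm1, the neuronal dynamin, and G3bp2, a stress granule protein (0.95 each). Slc11a2 had a distal share of 37.4 ± 2.72% in mutants and 49.6 ± 4.0% in wild types, and Slc7a1 33.9 ± 4.44% and 51.1 ± 9.54%. Those most like Abt1 were Appl1 (r = 0.98), Atrx, a chromatin remodeller, and Pax6 (0.97 each), and Cnpy4 and Pbx2 (0.96 each). Pax6, a transcription factor that is also one of the granule cell markers, had a distal share of 24.9 ± 14.8% in mutants and 56.6 ± 14.8% in wild types. These values describe 8 libraries and say nothing of shared control.

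Of the other genes of the MYC, MAX and MXD network, 7 were tested within the 3′-most exon and edgeR called 0. There was 1 in each direction at an unadjusted p under 0.05, a threshold met by 8.67% of all pairs with more distal ends and 4.25% with more proximal ends. Mlx, the MAX-like partner of the glucose-responsive MONDO factors, had a distal share of 22.6 ± 11% in mutants and 4.36 ± 4.90% in wild types (log2 change 2.72, SE 0.808, edgeR adjusted p = 0.38). Mycl, a brain-expressed MYC protein that binds DNA with MAX, had 5.52 ± 3.48% and 11.2 ± 4.22% (log2 change -1.18, SE 0.516, edgeR adjusted p = 0.38). Mnt, a repressor that pairs with MAX, had 74.3 ± 7.82% and 68.7 ± 4.73%. The median log2 change of the 7 was 0.14, beside 0.12 over all pairs.

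The level of Mxd1, which competes with MYC for MAX, was 6.92 ± 0.147 log2 CPM in mutants and 6.21 ± 0.455 in wild types (SD, n = 5 and 3), without overlap, as for 2.59% of all genes in this direction (log2 change 0.61, SE 0.182, edgeR adjusted p = 0.343). It was the only one of the 7 at an unadjusted p under 0.05 in level, where 7.29% of all genes were higher and 7.05% lower. Mxd4, of the same family, had 8.76 ± 0.171 and 9.02 ± 0.16 log2 CPM, and Mxi1 5.19 ± 0.137 and 5.40 ± 0.31. Set against an upstream exon, 4 others were tested and edgeR called 0. Mxd1 had 86.4 ± 1.88% of its reads in the 3′-most exon in mutants and 77.9 ± 5.37% in wild types (log2 change 0.83, SE 0.267, edgeR adjusted p = 0.282). In level summed over these exons, Mxd1 was the 1 of the 4 at an unadjusted p under 0.05, beside 15.1% of all genes. It had 7.53 ± 0.129 log2 CPM in mutants and 7.0 ± 0.369 in wild types (edgeR adjusted p = 0.327).

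Of the other genes that write, read or remove methylation of histone H4 lysine 20, or that degrade KMT5A, 8 were tested within the exon and edgeR called 0. An unadjusted p under 0.05 was reached by 2 with more distal ends and 0 with more proximal ends, beside 8.67% and 4.25% of all pairs. The median log2 change of the 8 was -0.09, beside 0.12 over all pairs. Kmt5b, which adds the second and further methyl groups to the residue that KMT5A marks, had a distal share of 13.5 ± 2.48% in mutants and 8.12 ± 2.92% in wild types (SD, n = 5 and 3; log2 change 0.87, SE 0.308, edgeR adjusted p = 0.38), opposite in sign to Kmt5a. Cul4b, a scaffold of the CRL4 ubiquitin ligases, had 95.6 ± 1.56% and 91.1 ± 2.98%. Dtl, the receptor by which CRL4 recognises KMT5A for degradation, had 76.2 ± 2.30% and 81.8 ± 6.19%, and it was not among the 2.

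In level, 2 of these 8 were higher at an unadjusted p under 0.05 and 0 lower, beside 7.29% and 7.05% of all genes. Phf8, a demethylase of the mark that KMT5A places, had 4.81 ± 0.268 log2 CPM in mutants and 4.21 ± 0.536 in wild types, and Trp53bp1, a reader of the dimethylated residue, 7.54 ± 0.163 and 7.15 ± 0.276 (SD, n = 5 and 3; edgeR adjusted p = 0.343 each). Phf8 also had 80.8 ± 1.97% of its reads in the 3′-most exon in mutants and 69.0 ± 4.89% in wild types, without overlap, as in 4.23% of pairs in this direction (log2 change 0.91, SE 0.261, edgeR adjusted p = 0.282). It was the 1 gene at an unadjusted p under 0.05 among 6 tested against an upstream exon, where 10.4% of all pairs reached that in this direction and 3.63% in the other, and edgeR called 0 of the 6. In level summed over these exons 1 of the 6 was higher and 0 lower at an unadjusted p under 0.05, beside 7.6% and 7.47% of all genes (15.1% in all). It was Trp53bp1, with 7.98 ± 0.151 log2 CPM in mutants and 7.63 ± 0.254 in wild types (SD, n = 5 and 3; edgeR adjusted p = 0.327).

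Among 14 other basal transcription factors tested within the exon edgeR called 0. At an unadjusted p under 0.05 there were 2 with more distal and 1 with more proximal ends, beside 8.67% and 4.25% of all pairs. Tbpl1, a relative of the TATA-binding protein, had a distal share of 86.6 ± 3.84% in mutants and 67.8 ± 13.7% in wild types (SD, n = 5 and 3; log2 change 1.59, SE 0.401), and Taf9b, a TFIID-type subunit, 95.8 ± 3.38% and 80.7 ± 9.49% (log2 change 2.64, SE 0.679), both without overlap, as are 2.53% of all pairs in this direction, and with an edgeR adjusted p of 0.38. Gtf2e2, the beta subunit of TFIIE, had 85.5 ± 5.74% and 93.1 ± 3.96%. Tbpl1 and Taf9b also had the 2 higher levels at an unadjusted p under 0.05 (7.29% of all genes), with 6.98 ± 0.61 against 5.86 ± 0.751 and 4.20 ± 1.03 against 2.10 ± 1.41 log2 CPM (mutants against wild types, edgeR adjusted p = 0.343 each). Taf10 was the 1 lower (7.05% of all genes), at 5.75 ± 0.226 and 6.13 ± 0.284 log2 CPM. Against an upstream exon 7 were tested for usage: 0 passed edgeR and 0 had an unadjusted p under 0.05, beside 14.0% of all pairs. In level summed over these exons, Taf1 was the 1 of the 7 at an unadjusted p under 0.05 (15.1% of all genes). It had 7.79 ± 0.336 log2 CPM in mutants and 7.15 ± 0.591 in wild types (edgeR adjusted p = 0.329). The granule cell and neuronal markers given above differed across the same libraries, and their part in these listed genes was not tested.

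A further list covered the small-subunit processome and other genes that act in making the small ribosomal subunit. Of 26 others on it tested within the exon edgeR called 0. At an unadjusted p under 0.05 there was 1 in each direction, beside 8.67% distal and 4.25% proximal over all pairs. Nob1, the endonuclease that makes the 3′ end of 18S rRNA, had a distal share of 73.0 ± 14.5% in mutants and 44.2 ± 24.8% in wild types, and Nop58, a core protein of box C/D small nucleolar particles, 48.6 ± 7.63% and 60.2 ± 4.28% (SD, n = 5 and 3). In level 0 of the 26 reached an unadjusted p under 0.05, beside 7.29% of all genes higher and 7.05% lower. The median log2 change in level was 0.01, the same as over all genes. Against an upstream exon 21 were tested for usage. There edgeR called 0, also at an unadjusted p under 0.05, which 14.0% of all pairs reached. In level summed over these exons 0 of the 21 reached an unadjusted p under 0.05, beside 15.1% of all genes.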

How the data were processed

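Raw counts of reads at each site of each gene were deposited by the authors, one column a library, and were used unchanged. RNA was extracted from whole brain and made into QuantSeq REV libraries, per the labels' protocols. STAR 2.5, HTSeq 0.6.0, FastQC 0.11.3 and mm9 are listed in the submitters' processing notes, without roles. How sites were picked and whether strand was used are not given in the sources used here. All value columns were mapped through the library code in the sample title, and replicate numbers only name animals. Chi-square per degree of freedom between libraries of a genotype ran from 4.92 to 61.6, so none was a copy of another.

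The filter kept pairs averaging at least 20 reads a library with at least 10 at each site in all. They were tested in edgeR 4.0.16 (R 4.3.3), quasi-likelihood, adjusted by Benjamini-Hochberg over the table. Usage was the site by genotype term in a fit of both sites' counts that blocked on library; level was fitted on the sum with TMM. DESeq2 1.42.0, limma 3.58.1, library totals, no filter and leaving out each library were alternatives. A standard error is the absolute log2 change divided by sqrt(F). CPM is scaled to 1000000 reads of that table, and log2 ratios add 0.5 to each count. The fits were also run on simulated counts with a fixed dispersion and no marker differences between libraries, so that run does not cover such differences here. The genes, gene lists and tests were chosen with earlier results of these data known. Named genes are Max, Kmt5a and Abt1, up to 4 per list and test by smallest p, and the 5 most correlated with each.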

Additional observations from a re-analysis of the deposited data

How the results depend on the processing

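Under a pseudocount of 5 the differences in log2 ratio were 1.31 for Max, -1.1 for Kmt5a and -2.39 for Abt1. The 3 genes were chosen for distal shares that did not overlap between the genotypes. Dropping any 1 library therefore could not reverse their differences, and only the size is described. Leaving out 1 library moved the differences between 18.1 and 25 points (log2 1.13 to 1.62) for Max, between -21.8 and -17.4 points (-1.40 to -1.09) for Kmt5a, and between -49.2 and -37.5 points (-3.19 to -2.40) for Abt1. Levels passed no test under any alternative run. Their log2 changes without 1 library ran from -0.26 to 0.01 for Max (0.01 without wild type 3), 1.10 to 2.10 for Kmt5a and 0.58 to 0.83 for Abt1, and for Max from 0.53 to 1.22 against the upstream exon and from -0.26 to -0.03 in level there. Counts of called genes depended on the test and on single libraries, and the cause was not tested. edgeR called 0 in all 4 comparisons. DESeq2 called 21 (15 toward the distal, 6 toward the proximal site), 26 in level, 5 against the upstream exon and 0 in level there. Without 1 library edgeR called 0 to 1, 0 to 68, 0 to 236 and 0 to 65. The highest counts came without mutant 5, except for usage within the exon (1 without wild type 3), and without wild type 3 it called 161 against the upstream exon. Mutant 5 had 1586 CPM of granule cell markers, against 1595 to 1934 CPM in wild types. Abt1 has a mean of 100.4 reads a library, which limits its shares. No paired analysis was possible because the labels give no replicate number that genotypes share.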

Other observations

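The total level of Kmt5a ran closely with that of many other genes, a comparison added after the values were seen. Over the 8 libraries, 1261 of 7376 genes (17.1%) had a Pearson's r of 0.9 or more with its log2 CPM, beside 407 (5.52%) for Abt1 and 7 (0.0949%) for Max. The highest were Frmd5, Sgip1, an adaptor of endocytosis at synapses, and Fam214a (r = 1.00 each), and they stayed at 1.00, 1.00 and 0.99 after subtracting the genotype means. Sgip1 had 3.82 ± 0.834 log2 CPM in mutants and 2.84 ± 0.754 in wild types (SD, n = 5 and 3). Cdk17, a kinase of the brain, had 5.75 ± 0.634 and 4.97 ± 0.569 log2 CPM with an r of 0.99. For Abt1 the highest were Dpysl3 and Chst2 (r = 0.99 each), and F2r, the thrombin receptor, had 2.69 ± 0.854 log2 CPM in mutants and 0.43 ± 0.906 in wild types with an r of 0.99. The values share libraries and depth and are given as a description.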
